A study of Mus musculus with 9 samples.

Results

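Interferon response genes are the transcripts that a cell switches on after interferon, a cytokine of antiviral defence, binds its receptor. A list of 36 such genes was looked up on the arrays, and 33 were measured among 22180 genes in all. A gene counted as measured where a probe set carried its symbol and no other, and the brightest probe set over the 9 arrays stood for it, which mattered only for Ifi35. Oas1a, Gbp2 and Ifi44 were not analysed here.

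The arrays measured total RNA from C57BL/6J mice, an inbred laboratory strain. The tissue was anterior cingulate cortex, and there were 3 groups of 3 animals. Saline mice were injected intraperitoneally at ZT5, that is 5 h after lights on. Ketamine mice were given 3 mg/kg of ketamine, a blocker of NMDA-type glutamate receptors, by the same route at the same time. Sleep-deprived mice spent ZT0 to ZT12 awake in a cage with a slowly rotating bar. No injection is recorded for this group, so wakefulness and the lack of an injection cannot be told apart. All brains were taken at ZT13, which is 8 h after the injections and 1 h after the deprivation ended. Each group holds its own run of the labelled array numbers, and what these numbers stand for is not stated.

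Type I interferons signal through the receptor subunits Ifnar1 and Ifnar2 and the kinases Jak1 and Tyk2. These lead to a complex, with Stat2 and Irf9 among its subunits, that binds a DNA element called the interferon-stimulated response element (ISRE). Type II interferon acts through another element, the gamma-activated site (GAS). In the healthy brain the pathway idles at a low level, and microglia, endothelial cells, astrocytes and neurons can all respond when it is triggered. Because whole tissue was measured, fewer cells of a type and less RNA per cell cannot be told apart in any value below.

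Many of the members held promoter letters that the list did not use. In windows of 300 bases, from 250 before to 50 after each annotated start site, the ISRE was searched on both strands as the letters GAAA, any 2 bases and GAAA again. RefSeq (GRCm38.p6) gave a window for 24 of the 33 members, and 13 of these 24, or 54.2%, held at least 1 match. Over 16990 genes on the arrays with a window the share was 3.87%, and over 32851 promoter windows of that length it was 3.44%. Matches lay before the start site in 10 members and only after it in Ddx58, Ifih1 and Ifitm3. The letters TTCNNNGAA of the GAS, which read the same on both strands, were found in 6 of the 24 members, or 25%, against 9.15% of genes and 8.30% of windows. Bst2 and Ifitm3 held both motifs, and the remaining members with the GAS letters were Irf1, Ifit2, Isg20 and Ifi35. A match describes letters in a window and does not show that a factor was bound in these mice.

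The sequences printed are those of members known as textbook interferon targets, and Bst2 and Cxcl10 are among them because their values return further on. Each runs 5′ to 3′ on the strand of its gene in RefSeq's GRCm38.p6, with ISRE matches in capitals and overlapping matches run together. Isg15 had 3 overlapping matches (chr4:156200855-156200916, minus strand), Ifit1 had 2 (chr19:34640765-34640833, plus), and Ifit3 had 2 (chr19:34583353-34583436, plus). Bst2 had 2 overlapping matches (chr8:71537567-71537622, minus). Oas3 (chr5:120777705-120777754, minus), B2m (chr2:122147528-122147577, plus) and Cxcl10 (chr5:92349073-92349122, minus) had 1 each.
Isg15: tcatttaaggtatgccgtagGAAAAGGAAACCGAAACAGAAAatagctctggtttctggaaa
Ifit1: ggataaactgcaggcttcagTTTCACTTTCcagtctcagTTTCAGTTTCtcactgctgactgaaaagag
Ifit3: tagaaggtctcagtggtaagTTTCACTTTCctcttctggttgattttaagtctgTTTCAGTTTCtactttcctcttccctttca
Bst2: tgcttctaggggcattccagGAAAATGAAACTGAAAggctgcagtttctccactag
Oas3: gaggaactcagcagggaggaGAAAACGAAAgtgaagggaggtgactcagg
B2m: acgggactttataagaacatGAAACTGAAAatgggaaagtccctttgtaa
Cxcl10: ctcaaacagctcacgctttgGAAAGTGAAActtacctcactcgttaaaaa

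**Figure D1:**
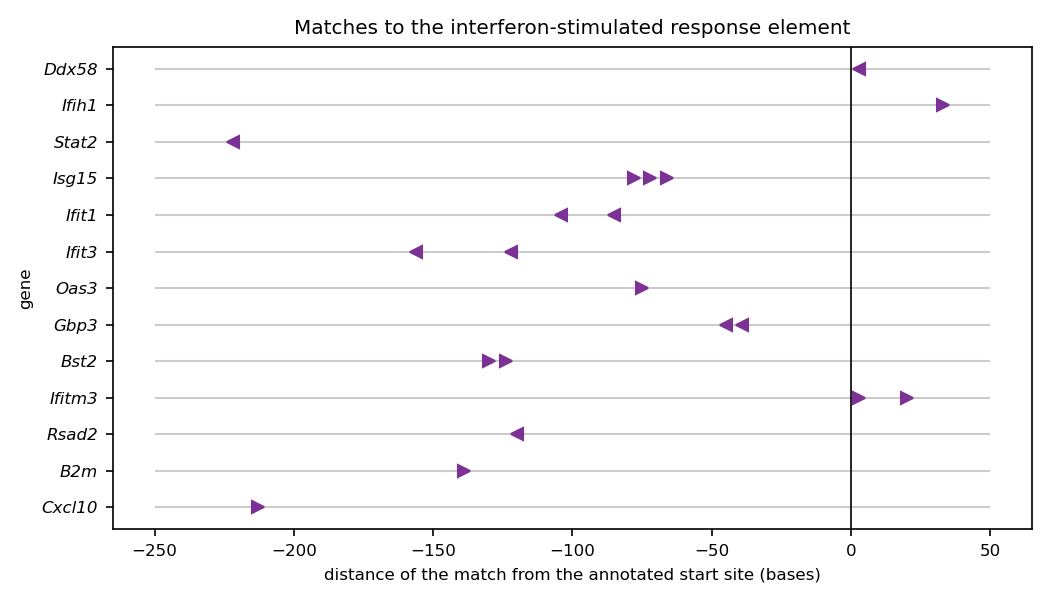
Position of each match to the ISRE letters in the 13 members that held one, as the distance in bases from the annotated start site (vertical line); triangles pointing right are matches on the gene's own strand, those pointing left on the opposite strand. In 10 of the genes matches lie upstream of the start, and Isg15, Ifit1, Ifit3, Gbp3 and Bst2 hold more than 1 there.

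Most of the members gave little signal in this tissue. Odorant receptor genes, which belong to the olfactory epithelium, served as a rough measure of the background of the arrays. The 95th percentile of the mean intensity of 1105 such genes was 113.8. Of the 33 members 14 lay above it and 19 did not, and 11 lay above the median of all genes, 129.3. Probe sets differ in how strongly they respond, so this line is a guide to background and does not rank transcripts by abundance. The members above the line were B2m, Ifitm3, Stat2, Ddx58, Ifi35, Ifi27, Ifit3, Isg20, Tap1, Ifih1, Irf9, Xaf1, Irf1 and Isg15. The lowest mean intensities were those of Mx1 (36.6), Cxcl10 (56.3), Trim25 (56.5) and Mx2 (62.3).

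**Figure D2:**
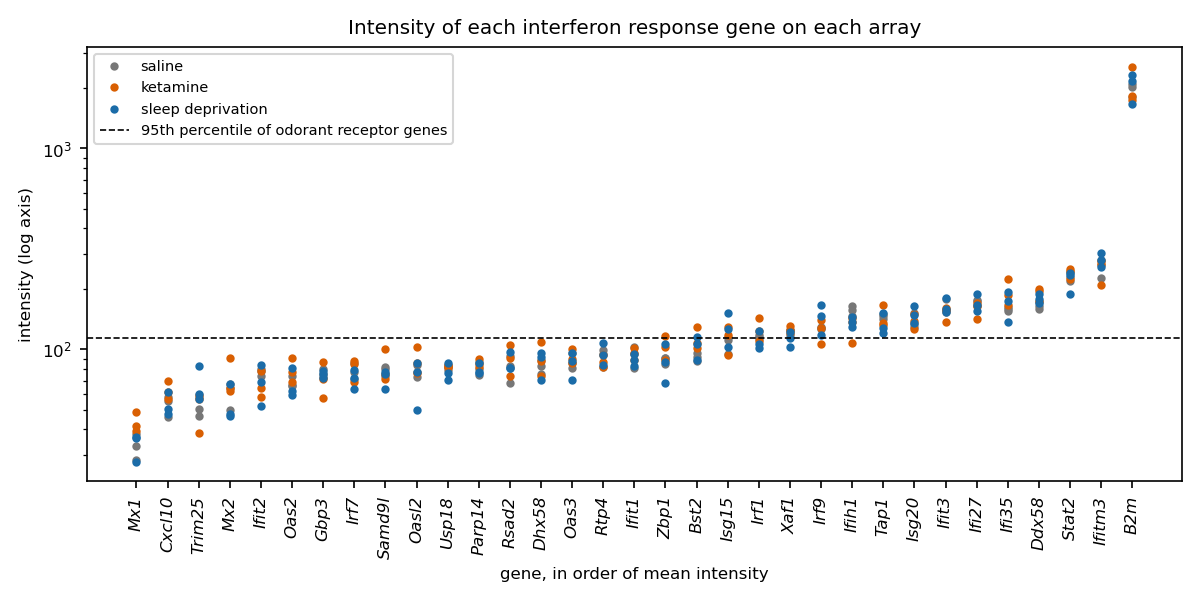
Intensity of each of the 33 members (log axis) on each of the 9 arrays, coloured by group, with genes in order of their mean intensity; the dashed line is the 95th percentile of odorant receptor genes, 113.8. For most genes the points of the 3 groups are mixed, and 14 genes have a mean above the line.

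Array medians over all probe sets lay between 97.7 and 106.2, and Pearson's r between arrays of 1 group, over log2 values of genes, was 0.986 to 0.995. Relative to each gene's mean over the 9 arrays, odorant receptor genes had a median of 0.10 on ketamine array 3, 0.085 on sleep-deprived array 3 and -0.13 on sleep-deprived array 2, against -0.032 to 0.0054 on the others. Markers of cortical neurons were present throughout, with a summed intensity of 10 measured marker genes from 22446 to 24557. The choroid plexus and ependymal list (6 of 8 markers measured) summed to 2116 on saline array 1 and 9402 on saline array 2, against 482 to 970 on the other arrays.

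Changes are given as differences of log2(intensity + 16) ± SE from a limma fit of all 9 arrays, with n = 3 per group and Benjamini-Hochberg adjustment over 22180 genes at 0.05. The offset of 16 understates the change of dim genes. Ketamine was set against saline first, to see what 1 dose does to these genes 8 h on. No member passed the test. limma called 0 of 33 members and 0 of 22180 genes (0%) at an adjusted p under 0.05, and the smallest adjusted p of a member was 0.87. At an unadjusted p under 0.05 there were 3 members, Mx1 and Bst2 higher and Ifih1 lower, against 1013 genes in all, or 4.57% (2.21% higher and 2.35% lower). That count was 0 without saline array 2 and 1 without saline array 3, beside 2.05% and 3.62% of all genes in the same fits. The median difference of the members was 0.045, beside -0.015 for all genes, and it was 0.076 without ketamine array 1. When limma weighted the arrays, ketamine arrays 1, 2 and 3 were given weights of 0.655, 7.92 and 0.467. With these weights limma called 1439 of 22180 genes and 3 of 33 members. The 3 members were Mx2 (0.43 ± 0.10, adjusted p = 0.0344), Cxcl10 (0.28 ± 0.07, adjusted p = 0.0421) and Ddx58 (0.24 ± 0.06, adjusted p = 0.0323). The ketamine side of this fit rests mostly on ketamine array 2, which held the highest value of each of these 3 genes.

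On average 22 of the 33 members were higher after ketamine and 11 lower, where 45.4% of all genes were higher. Members of different brightness split differently. Of the 14 members above the odorant receptor line 7 were higher and 7 lower (median 0.0082). Of the 19 members not above it 15 were higher and 4 lower (median 0.071). The odorant receptor genes themselves were higher in 643 of 1105 cases, or 58.2%, with a median of 0.036. The part of background signal in the members' direction was not tested.

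Sleep deprivation was then set against saline, to see the same genes after 12 h awake. limma again called 0 of 33 members, with 0 of 22180 genes in all (0%). No member had an unadjusted p under 0.05, against 781 genes, or 3.52% (1.8% higher and 1.72% lower). There were 2 such members without sleep-deprived array 2, namely Ifit2 and Isg15, or 6.06% of members against 5.66% of all genes in that fit. There was 1, or 3.03%, without sleep-deprived array 1 (Irf9), sleep-deprived array 3 (Trim25) and ketamine array 3 (Trim25 again), against 3.13%, 9.37% and 3.73% of all genes. With 15 members higher and 18 lower, their median of -0.0086 lay beside -0.0088 for all genes, of which 46.6% were higher. The saline arrays are the same as in the ketamine comparison, so both differences of a gene share them.

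Set directly against sleep deprivation, ketamine gave a median member difference of 0.081, beside -0.012 for all genes, with 21 members higher and 12 lower where 47% of all genes were higher and 53% lower. limma called 0 of 33 members and 0 of 22180 genes (0%), and the smallest adjusted p of a member was 0.503. Mx1 and Mx2, both higher after ketamine, had an unadjusted p under 0.05, that is 2 of 33 members against 2103 genes in all, or 9.48% (5.1% higher and 4.38% lower). The count was 1 without ketamine array 2 (Trim25) or sleep-deprived array 2 (Oasl2), beside 6.78% and 6.38% of all genes. It was 5 without sleep-deprived array 3, or 15.2% of members, where 21.5% of all genes passed. Neither gene lies above the odorant receptor line. Of the members above that line 6 of 14 were higher, and of those not above it 15 of 19, beside 57.9% of the odorant receptor genes.

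For all 33 members, and in each of the 3 comparisons, the 95% interval of the difference lay inside a 2-fold change in either direction. That also held with an offset of 1, which damps dim genes less. The interval bound farthest from 0 was 0.515 for ketamine against saline, 0.578 for sleep deprivation against saline and 0.645 between the treatments. Intervals within 1.5-fold were found for 33, 33 and 30 members in that order, and for 30, 29 and 28 with the offset of 1. For probe sets at background these intervals bound the signal and not the transcript.

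**Figure D3:**
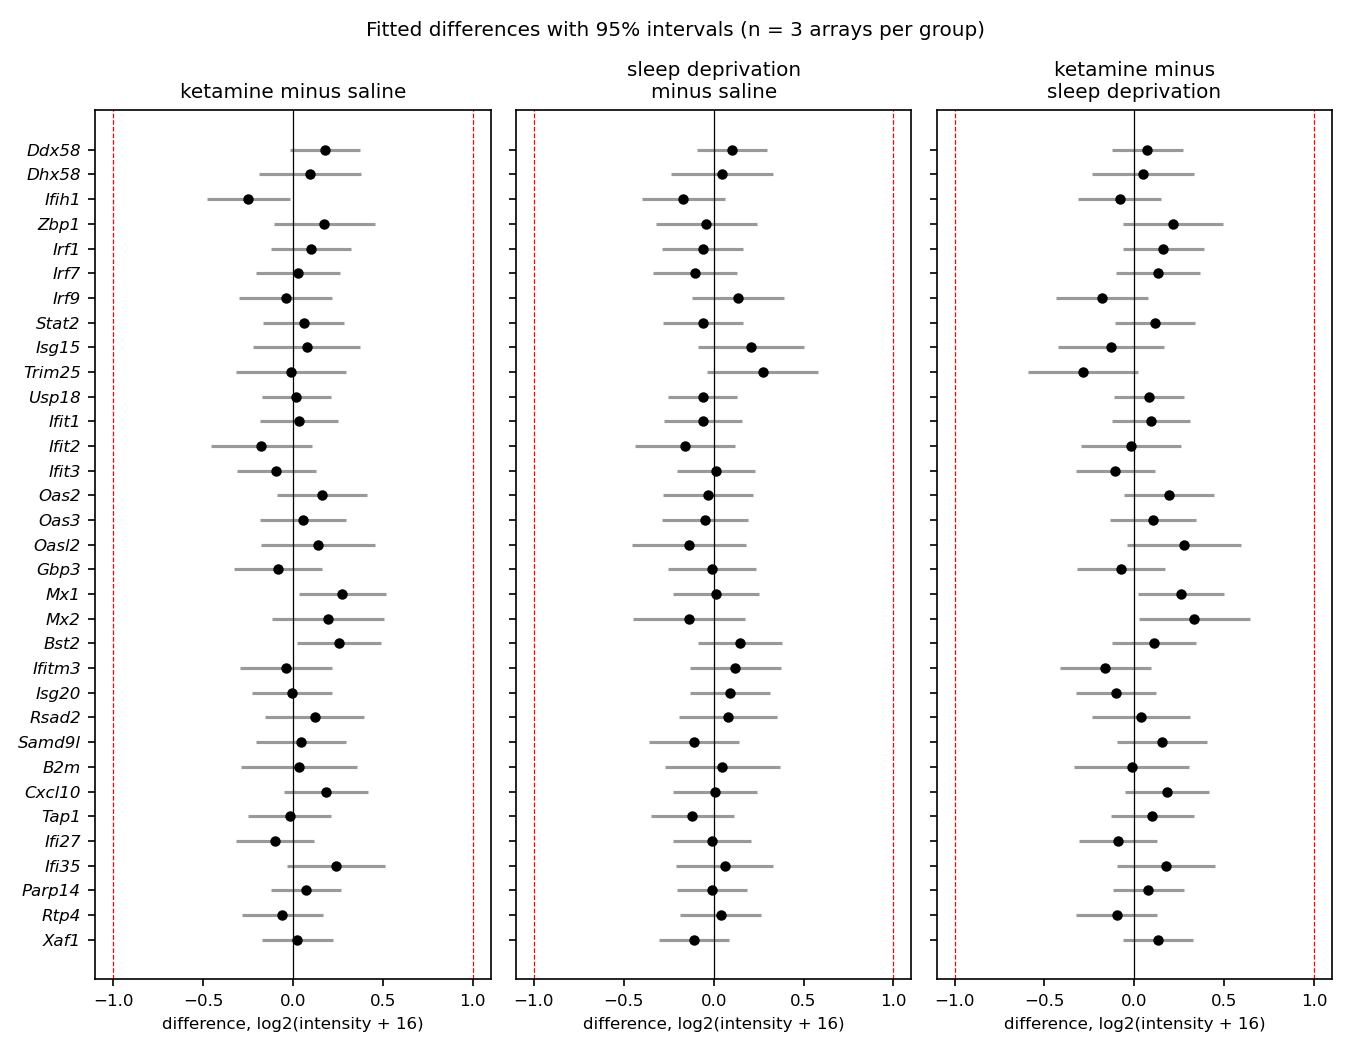
Fitted difference on the log2(intensity + 16) scale (points) with its 95% interval (lines) for each of the 33 members in the 3 comparisons, n = 3 arrays per group; dashed lines mark a 2-fold change. Every interval lies inside the dashed lines, and those that leave out 0 belong to Ifih1, Mx1 and Bst2 for ketamine against saline and to Mx1 and Mx2 between the treatments.

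The cytosolic sensors, which detect foreign nucleic acid and start interferon production, held 2 of the members whose groups did not overlap. Ifih1 encodes MDA5, a sensor of long double-stranded RNA. Its intensities were 146, 157 and 165 after saline, 143, 137 and 108 after ketamine, and 137, 146 and 129 after sleep deprivation. Every treated array lay below every saline array, with sleep-deprived array 2 (145.6) close under the lowest saline array (146.3). The difference was -0.25 ± 0.11 after ketamine (limma, unadjusted p = 0.0363, adjusted p = 0.87) and -0.17 ± 0.11 after sleep deprivation (adjusted p = 1). Without ketamine array 3, the lowest, the ketamine difference was -0.14.

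Ddx58 encodes RIG-I, a sensor of the ends of viral RNA, and lay on the other side of saline. It read 173, 165 and 159 after saline, 195, 199 and 174 after ketamine, and 171, 178 and 188 after sleep deprivation. The ketamine arrays lay above the saline arrays with a narrow gap at ketamine array 3, and the sleep-deprived arrays overlapped both. The ketamine difference was 0.18 ± 0.09 (limma, unadjusted p = 0.072, adjusted p = 0.87). Dhx58, a regulator of those sensors, and Zbp1, a sensor of Z-form nucleic acid, were at 0.10 ± 0.13 and 0.17 ± 0.13 after ketamine, with groups that overlapped. Zbp1 spanned 68.0 to 106.7 within the sleep-deprived group alone.

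The transcription factors of the pathway did not separate the groups. Stat2, a subunit of the complex that binds the ISRE, read 230, 242 and 219 after saline, 251, 245 and 225 after ketamine and 235, 240 and 189 after sleep deprivation. The groups overlapped, and the differences from saline were 0.058 ± 0.10 and -0.057 ± 0.10. Irf9, its DNA-binding partner, was at -0.042 ± 0.12 after ketamine and 0.14 ± 0.12 after sleep deprivation, with 165 on sleep-deprived array 2 as its highest value. Irf7, a factor that amplifies interferon production and is itself induced by it, was at 0.026 ± 0.11 and -0.10 ± 0.11. Irf1, a factor downstream of type II interferon, was at 0.10 ± 0.10 and -0.061 ± 0.10.

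Isg15 encodes a ubiquitin-like protein that is attached to other proteins in the antiviral state, and its promoter window carries the 3 overlapping matches printed above. It read 111, 115 and 94.8 after saline, 94.3, 119 and 130 after ketamine, and 153, 102 and 127 after sleep deprivation. The sleep-deprived group held the highest value of all and 1 inside the saline range, and the difference was 0.21 ± 0.14 (limma, adjusted p = 1). Usp18, the protease that removes Isg15 and damps receptor signalling, ranged from 70.5 to 85.5 over the 9 arrays. Trim25, a ubiquitin ligase that activates RIG-I, was at 0.27 ± 0.14 after sleep deprivation (limma, unadjusted p = 0.0777), farther from 0 than any other member in that comparison. Sleep-deprived array 2 stood at 82.8, and the other sleep-deprived arrays, at 59.7 and 56.4, lay on either side of the highest saline array, 58.0.

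The Ifit genes, which encode proteins that bind foreign RNA, lie in 1 gene cluster and did not share a direction. After ketamine Ifit1 was at 0.033 ± 0.10, Ifit2 at -0.18 ± 0.13 and Ifit3 at -0.093 ± 0.10. After sleep deprivation they were at -0.060 ± 0.10, -0.16 ± 0.13 and 0.013 ± 0.10. The groups overlapped for all 3 genes. Ifit2 was lowest on sleep-deprived array 1 (52.6) and highest on sleep-deprived array 2 (83.4), so the spread inside that group covered the whole range.

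Oligoadenylate synthetases make the messenger that activates an RNA-degrading enzyme. After ketamine Oas2 was at 0.16 ± 0.12, Oas3 at 0.056 ± 0.11 and their relative Oasl2 at 0.14 ± 0.15. After sleep deprivation they were at -0.031 ± 0.12, -0.048 ± 0.11 and -0.14 ± 0.15. All 3 thus had a mean above saline after ketamine and below it after sleep deprivation, with no unadjusted p under 0.05, and none lies above the odorant receptor line. Oasl2 read 49.8 on sleep-deprived array 1 against 73.1 to 102.7 on the other arrays.

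Mx1 and Mx2 are interferon-induced genes of the dynamin-like GTPase family, and Mx1 had the ketamine difference farthest from 0 in the list. Whether either makes a working protein in these mice was not tested. Mx1 read 28.1, 32.9 and 38.1 after saline, 49.0, 41.5 and 39.3 after ketamine, and 36.6, 27.7 and 36.3 after sleep deprivation. All ketamine arrays lay above all others, and the closest saline and ketamine arrays read 38.1 and 39.3. The difference was 0.27 ± 0.11 from saline (limma, unadjusted p = 0.0282, adjusted p = 0.87) and 0.26 ± 0.11 from sleep deprivation (unadjusted p = 0.0357, adjusted p = 0.503). The latter was 0.17 without sleep-deprived array 2.

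Mx2 read 50.1, 67.4 and 64.5 after saline, 64.4, 90.5 and 61.9 after ketamine, and 67.0, 47.8 and 46.9 after sleep deprivation. Ketamine array 2 stood highest, and the groups overlapped. The difference between the treatments was 0.33 ± 0.14 (limma, unadjusted p = 0.0365, adjusted p = 0.504), and it was 0.19 without ketamine array 2. Gbp3, a guanylate-binding protein, was at -0.086 ± 0.11 after ketamine and -0.011 ± 0.11 after sleep deprivation.

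Among the other antiviral effectors Bst2 encodes tetherin, a membrane protein that holds budding virus on the cell. It read 95.8, 87.4 and 91.4 after saline, 129, 102 and 108 after ketamine, and 89.1, 106 and 115 after sleep deprivation. All ketamine arrays lay above all saline arrays and overlapped the sleep-deprived ones. The difference was 0.26 ± 0.11 after ketamine (limma, unadjusted p = 0.0346, adjusted p = 0.87) and 0.15 ± 0.11 after sleep deprivation. The ketamine difference was 0.17 without ketamine array 1. The mean intensity of Bst2, 102.6, lay under the odorant receptor line.

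Ifitm3 encodes a membrane protein that stops viral entry and is found in brain endothelium. It read 279, 226 and 265 after saline, 265, 276 and 208 after ketamine, and 301, 259 and 280 after sleep deprivation. The groups overlapped, and the differences were -0.040 ± 0.12 for ketamine and 0.12 ± 0.12 for sleep deprivation. Endothelial markers (14 measured of 15) had medians on the same sides of 0, at -0.11 after ketamine and 0.11 after sleep deprivation. Between ketamine and sleep deprivation 13 of the 14 were lower, with a median of -0.23. An unadjusted p under 0.05 was found for 8 (57.1%) and no overlap for 5, against 9.48% and 10.1% of all genes. Ifitm3 itself differed by -0.16 ± 0.12 in that comparison. The summed intensity of the endothelial markers was 4552 to 5126 after saline, 4256 to 4885 after ketamine and 4982 to 5163 after sleep deprivation. Its part in the values of Ifitm3 was not tested. Isg20, an exonuclease gene, Rsad2, which encodes viperin, and Samd9l, an antiviral regulator, had differences from saline of -0.11 to 0.12 over both comparisons, all with overlapping groups.

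B2m encodes the light chain of major histocompatibility complex class I. It read 2095, 1804 and 2022 after saline, 2552, 1833 and 1751 after ketamine, and 1672, 2176 and 2324 after sleep deprivation. Both treated groups spread on either side of saline, with an SD of 440 and 342 against 151, and the mean differences were 0.034 ± 0.15 and 0.048 ± 0.15. Tap1, part of the transporter that feeds peptides to class I molecules, was at -0.019 ± 0.11 and -0.12 ± 0.11. Cxcl10, a chemokine that attracts T cells, read 46.1 to 58.0 after saline, 56.8 to 69.6 after ketamine and 47.9 to 61.5 after sleep deprivation. Its differences were 0.19 ± 0.11 (limma, unadjusted p = 0.111) and 0.0060 ± 0.11, at a mean intensity under the odorant receptor line.

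Ifi35, a regulator of innate signalling, was the remaining member whose groups did not overlap. It read 163, 155 and 159 after saline, 166, 186 and 224 after ketamine, and 175, 137 and 193 after sleep deprivation. The ketamine arrays lay above the saline arrays, led by ketamine array 3. The difference was 0.24 ± 0.13 (limma, unadjusted p = 0.0811, adjusted p = 0.87), and 0.13 without that array. A dimmer probe set of the gene read 149, 147 and 148 after saline and 151, 159 and 162 after ketamine, again without overlap and with a smaller gap.

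Ifi27, an interferon-inducible membrane protein gene, read 175, 174 and 164 after saline, 171, 164 and 141 after ketamine and 166, 189 and 156 after sleep deprivation. Its groups overlapped, with differences of -0.10 ± 0.10 and -0.0086 ± 0.10. Parp14, Rtp4 and Xaf1 had differences from saline of -0.11 to 0.071 over both comparisons, all with overlapping groups.

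Over the whole list the groups did not overlap for 5 of 33 members between ketamine and saline (Ddx58, Ifi35, Bst2 and Mx1 higher, Ifih1 lower). That is 15.2% of members, against 14.4% of all genes (6.48% higher and 7.89% lower). Between sleep deprivation and saline it was 1 member, Ifih1, lower, against 7.11% of all genes (3.57% higher and 3.54% lower). Between ketamine and sleep deprivation it was again 1, Mx1, higher, against 10.1% (4.53% higher and 5.54% lower). The 13 members with ISRE letters had a median difference of 0.056 after ketamine and 0.013 after sleep deprivation, and the 11 members with a window and no match had 0.025 and -0.10. Between ketamine and sleep deprivation the order was the other way, with medians of 0.039 with the letters and 0.13 without.

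**Figure D4:**
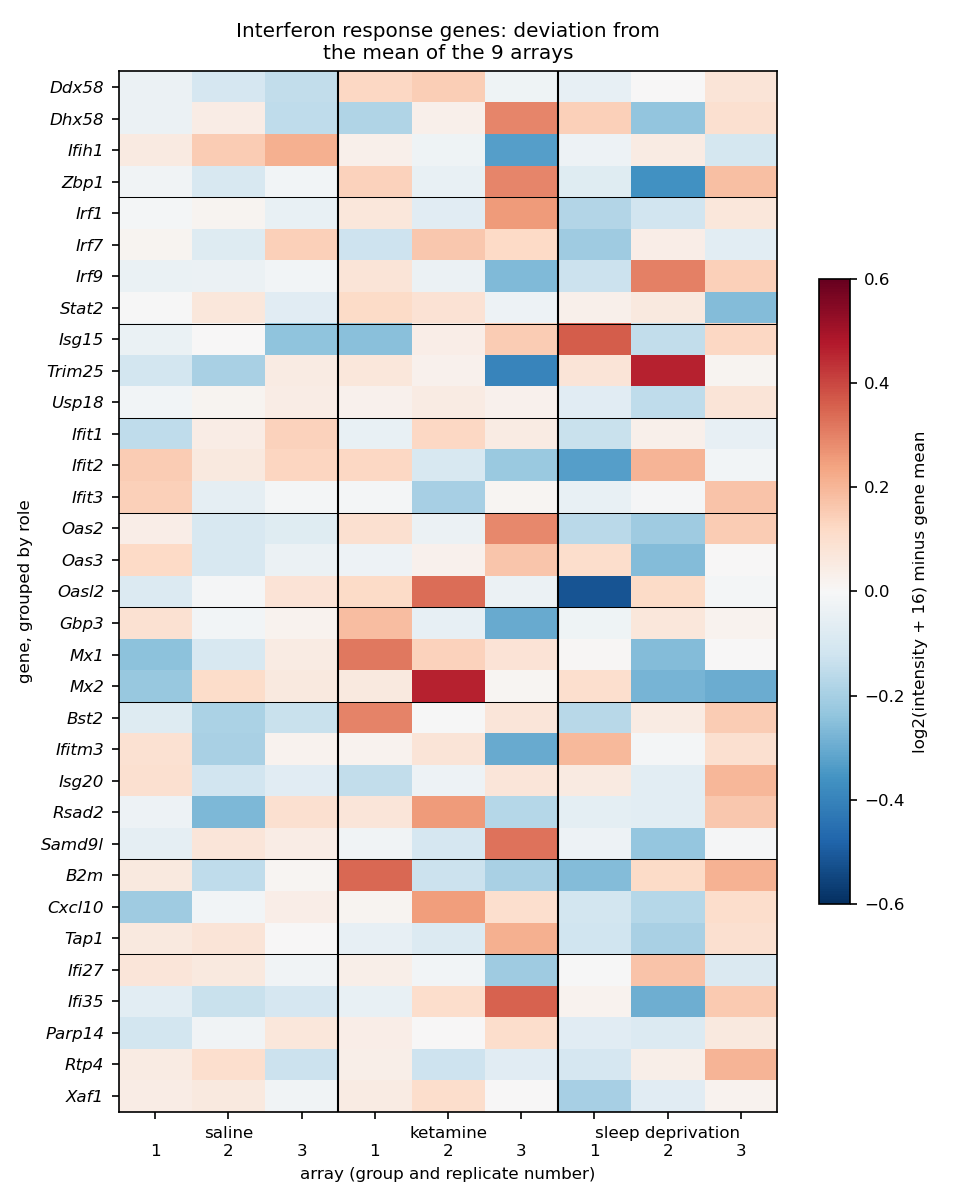
Deviation of each of the 33 members (rows, grouped by role) from its own mean over the 9 arrays on the log2(intensity + 16) scale, with arrays in columns by group and replicate number. No column is uniformly red or blue, and the deepest single cells, such as Oasl2 on sleep-deprived array 1 (intensity 49.8) and Mx2 on ketamine array 2 (90.5), belong to 1 array each.

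The members were read array by array as well, since a raised response in 1 mouse can be hidden in a group mean. The median deviation of the members from their own means ran from -0.062 on sleep-deprived array 2 to 0.077 on sleep-deprived array 3, and from -0.018 to 0.0020 over the saline arrays. On sleep-deprived array 3, 24 of the 33 members lay above their own mean, the most of the 9 arrays, and on sleep-deprived array 1 there were 10, the fewest, where 53.7% and 45.0% of all genes lay above theirs. Ketamine array 3 held the highest value of 9 members and the lowest of 6, and of all genes 20% and 24.7% had their highest and lowest value there. The saline arrays held the highest value of 0, 0 and 2 members, beside 6.55%, 8.30% and 5.30% of all genes. The median SD within groups was 0.14 for the members and 0.13 for all genes.

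**Figure D5:**
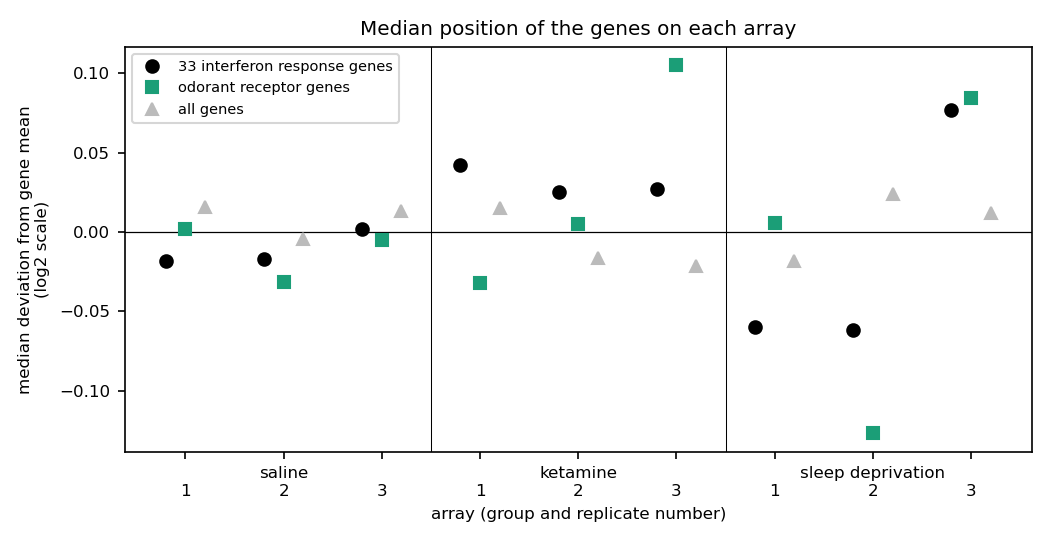
Median deviation from the gene mean over the 9 arrays (log2 scale) of the 33 members (circles), 1105 odorant receptor genes (squares) and all genes (triangles), by array. The members run from -0.062 to 0.077. The odorant receptor genes lie on their side of 0 on saline array 2, ketamine arrays 2 and 3 and sleep-deprived arrays 2 and 3. They lie on the other side on saline arrays 1 and 3, ketamine array 1 and sleep-deprived array 1.

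The rest of the pathway was read in 4 lists, 3 of them upstream of the members and 1 of further interferon targets, and limma called 0 genes of each in each comparison at an adjusted p under 0.05. Of 19 measured interferon genes of 21 listed, 1 was higher and 1 lower after ketamine at an unadjusted p under 0.05, and 0 and 1 after sleep deprivation. These are 10.5% and 5.26% of the list, against 4.57% and 3.52% of all genes. Between the treatments 3 were higher after ketamine and 1 lower, or 21.1% against 9.48%. Ifnb1, which encodes interferon beta, had group means of 22.2, 26.6 and 25.3 in the order saline, ketamine, sleep deprivation, below the median of the odorant receptor genes, 30.5. Ifna9 and Ifna16 had mean intensities of 30.0 and 15.7, with differences of 0.33 ± 0.14 and -0.37 ± 0.16 after ketamine, and Ifnab was at -0.34 ± 0.15 between the treatments. The interferon alpha genes are closely similar copies, so their probe sets may share signal.

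Ifng, the type II interferon of T and NK cells, read 53.4, 37.6 and 61.6 after saline, 51.4, 62.9 and 60.5 after ketamine and 28.9, 37.8 and 50.6 after sleep deprivation. Its ketamine arrays lay above the sleep-deprived ones, by 0.45 ± 0.15 (limma, unadjusted p = 0.0115, adjusted p = 0.448), and each group overlapped saline. Markers of T and NK cells (8 measured of 10) summed to 602 to 635 after saline, 615 to 729 after ketamine and 553 to 667 after sleep deprivation. Between the treatments 6 of the 8 were higher after ketamine and 2 lower (median 0.048). At an unadjusted p under 0.05 there were 3, all higher, or 37.5% against 9.48% of all genes. The smallest p was that of Gzmb, at 0.39 ± 0.09 (unadjusted p = 0.000836, adjusted p = 0.335). Ifng and those 3 markers, Gzmb, Cd4 and Cd3g, had mean intensities of 41.7 to 60.4, under the odorant receptor line. In the same comparison 57.9% of the odorant receptor genes were higher after ketamine. The markers above the line, Cd3e and Prf1, were at 0.045 ± 0.09 and -0.092 ± 0.12. The part of background signal and of such cells in Ifng was not tested.

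Receptors and proximal signalling genes (17 measured of 18) held 0 genes at an unadjusted p under 0.05 in each comparison. Of all genes 4.57% passed after ketamine, 3.52% after sleep deprivation and 9.48% between the treatments. Ifnar1, named as a receptor subunit and not for its p, read 574, 592 and 593 after saline, 560, 548 and 511 after ketamine and 576, 593 and 511 after sleep deprivation. The ketamine arrays lay below the saline arrays, by -0.12 ± 0.09 (limma, adjusted p = 0.87). The list had a median of -0.048 after ketamine and 0.033 after sleep deprivation.

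Of the genes for sensing upstream of interferon (18 measured of 20), 2 were lower after ketamine at an unadjusted p under 0.05, and after sleep deprivation 1 was higher and 2 lower, or 11.1% and 16.7% of the list against 4.57% and 3.52% of all genes. Between the treatments there were 0, against 9.48% of all genes. Tlr3, the endosomal receptor for double-stranded RNA, read 222, 256 and 254 after saline, 207, 204 and 166 after ketamine, and 182, 219 and 169 after sleep deprivation. All treated arrays lay below all saline arrays. The difference was -0.32 ± 0.12 after ketamine (limma, unadjusted p = 0.015, adjusted p = 0.87) and -0.34 ± 0.12 after sleep deprivation (unadjusted p = 0.0108, adjusted p = 1). Ifih1, whose product senses the same kind of RNA in the cytosol, also lay below saline on every treated array, and both genes share the 3 saline arrays in both comparisons.

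Tlr8, a myeloid receptor gene of the same family, read 82.4, 76.7 and 80.9 after saline, 59.4, 53.3 and 62.0 after ketamine, and 68.3, 61.3 and 72.4 after sleep deprivation. All treated arrays lay below all saline arrays here too, at a signal under the odorant receptor line. It was at -0.37 ± 0.09 after ketamine (limma, unadjusted p = 0.0013, adjusted p = 0.87). Tlr7, a receptor for single-stranded RNA, was at 0.27 ± 0.12 after sleep deprivation (unadjusted p = 0.0413).

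A further 60 interferon-stimulated genes, 55 of them measured, gave a wider view of the same response. After ketamine 28 were higher and 27 lower (median 0.0029), and after sleep deprivation 30 were higher and 25 lower (median 0.021). At an unadjusted p under 0.05 there were 3 higher and 4 lower after ketamine, and 2 higher and 2 lower after sleep deprivation. These are 12.7% and 7.27% of the list, against 4.57% and 3.52% of all genes. Between the treatments 7 were higher after ketamine and 4 lower, or 20% against 9.48%, with a list median of 0.028. Eif2ak2 encodes PKR, the kinase that halts translation on double-stranded RNA. It read 84.0, 103 and 89.4 after saline, 69.9, 65.2 and 64.4 after ketamine and 82.9, 91.4 and 68.4 after sleep deprivation. No ketamine array reached the lowest saline array, and the difference was -0.39 ± 0.11 (limma, unadjusted p = 0.00303, adjusted p = 0.87).

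Ifit3b, a copy of Ifit3, was at -0.47 ± 0.13 after ketamine, with all ketamine arrays (25.2 to 31.9) under all saline arrays (43.9 to 49.6). Ifit3 itself was at -0.093 ± 0.10, and the probes may not separate the copies. Ifitm2, a relative of Ifitm3, was at -0.28 ± 0.11 after ketamine and -0.37 ± 0.11 against sleep deprivation. H2-T23, a nonclassical class I gene, read 121, 87.1 and 107 after sleep deprivation, above 61.9 to 76.3 after saline, with a difference of 0.51 ± 0.18 (limma, unadjusted p = 0.0153, adjusted p = 1). After ketamine H2-T23 read 73.7, 80.0 and 37.3, and was at -0.64 ± 0.18 against sleep deprivation (limma, unadjusted p = 0.00364, adjusted p = 0.377). Eif2ak2, Ifit3b, Ifitm2 and H2-T23 were picked by their unadjusted p, and none lies above the odorant receptor line. Each was picked in a comparison where it was lower after ketamine, and so they do not stand for the list. Of its genes with an unadjusted p under 0.05 between the treatments, 7 were higher after ketamine and 4 lower.

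Markers of cells that can respond to interferon were read beside these values, and limma called 0 marker genes at an adjusted p under 0.05 in each comparison. Microglial markers (14 measured of 15) summed to 3619 to 4035 after saline, 3550 to 3827 after ketamine and 3712 to 4095 after sleep deprivation, with median differences from saline of -0.045 and 0.014. Between ketamine and sleep deprivation 6 of the 14 were higher and 8 lower (median -0.042). C1qb and Fcrls, at -0.36 ± 0.10 and -0.35 ± 0.10, were the 2 with an unadjusted p under 0.05, or 14.3% against 9.48% of all genes. P2ry12 (0.21 ± 0.13) and Trem2 (0.15 ± 0.09) lay on the other side. Border-associated macrophage markers (8 of 8) summed to 835 to 889, 827 to 873 and 821 to 891 in the same order of groups. Those of B cells (4 of 5) summed to 260 to 308, 278 to 336 and 217 to 318, and those of neutrophils and monocytes (9 of 9) to 673 to 732, 748 to 765 and 648 to 815. For both, and for T and NK cells, sleep-deprived array 2 held the lowest sum, and it was also the array on which the odorant receptor genes were lowest. Astrocyte, mural cell, oligodendrocyte and meningeal fibroblast markers had medians of -0.092, -0.049, 0.0050 and -0.17 after ketamine and -0.038, 0.016, -0.029 and -0.071 after sleep deprivation. The part of cell makeup in the members' values was not tested.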

How the data were processed

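Per the submitters' processing notes, the authors summarised the arrays with Affymetrix Expression Console 1.1.1 and PLIER 2.0. The deposited table holds 41345 probe sets as linear intensity values, 1 column per array. How background was corrected, and whether arrays were normalized to each other, is not given in the sources used here. In the platform annotation 23521 probe sets had 1 gene symbol, 1814 several and 16010 none. Symbols were updated through gene identifiers to RefSeq names (23328 matched), and 1082 genes with several probe sets took the brightest. Values of log2(intensity + 16) were fitted with limma 3.58.1 in R 4.3.3, with all 9 arrays in 1 fit (6 residual degrees of freedom) and no covariate. The fit was tested on simulated data. The titles call the replicates biological, and 0 pairs of arrays were identical.

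The members, gene lists and naming rule were chosen with earlier results of these data known. All values are given for members with an unadjusted p under 0.05, members whose groups do not overlap and the 6 brightest, and up to 4 genes of another list were named by unadjusted p. Alternatives are given in the closing section.

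Erythroid markers were not analysed here.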

Additional observations from a re-analysis of the deposited data

How the results depend on the processing

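Alternatives covered offsets of 1 and 64, quantile normalization, arrays centred on their median, removal of the dimmest 33.3% of genes, limma-trend, array weights, the mean of a gene's probe sets, fits of only the 2 groups compared, a replicate block and leaving out each array. The count of members called at an adjusted p under 0.05 was 0 in all 3 comparisons under each of these, apart from array weights. There it was 3 of 33 for ketamine against saline, beside 1439 of 22180 genes. For sleep deprivation against saline and between the treatments it was 0 of 33, beside 0 and 42 of 22180 genes. Some other settings called genes outside the list. Between the treatments these were 214 of 22180 without sleep-deprived array 3, 15 with limma-trend and 14 with an offset of 64. A further 5 of 14786 were called without the dimmest genes, and 1 without sleep-deprived array 2. For sleep deprivation against saline they were 4 without sleep-deprived array 2 and 3 with limma-trend. It was 1 gene each without sleep-deprived array 1 and with centred arrays. The count at an unadjusted p under 0.05 was 11 with array weights for ketamine against saline, 2 for sleep deprivation against saline and 5 between the treatments, or 33.3%, 6.06% and 15.2% of members, where 27.4%, 6.19% and 18.7% of all genes passed. It was 0 to 3, 0 to 2 and 1 to 5 of 33 when each array of the comparison was left out. In those fits 2.05% to 8.44%, 2.57% to 9.37% and 5% to 21.5% of all genes passed. Between the treatments it was 1 with offsets of 1 and 64, quantile normalization or limma-trend, beside 1922 to 2222 of 22180 genes. It was 0 without the dimmest genes, where 21 members remained to be tested and 1514 of 14786 genes passed. The median member difference for ketamine against saline was 0.033 with an offset of 64, 0.020 after quantile normalization, 0.034 without the dimmest genes, 0.034 with array weights, and 0.039 to 0.076 with each array left out, always above 0. It was 0.037 to 0.11 between the treatments. For sleep deprivation against saline it ran from -0.052 to 0.039 and was above 0 in 5 of 16 alternatives. The cause of these shifts was not tested.

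With the replicate block the counts at an unadjusted p under 0.05 were 3, 0 and 3, beside 5.65%, 4% and 11.1% of all genes, and 0 members were called in each comparison. Same-numbered arrays correlated at -0.20 to 0.44 in their deviations from group means, 2 of 9 such pairs exceeded 0.1, and the numbers were not taken as pairs. The differences of Mx1, Bst2, Ifih1, Ddx58 and Ifi35 after ketamine, of Ifih1 after sleep deprivation and of Mx1 and Mx2 between the treatments kept their direction in the alternatives they were tested in. All but Mx2 had groups without overlap, where leaving out an array or changing the offset cannot reverse the direction. For these genes such fits are therefore no test of direction. Mx2, whose groups overlapped, ran from 0.19 to 0.46 with each array left out. With 3 arrays in a group, precision was limited by their number.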

Other observations

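Some members had 1 array far from the rest within a group, which groups of 3 cannot weigh. Trim25 read 82.8 on sleep-deprived array 2 and 38.5 on ketamine array 3, its highest and lowest values, with 46.7 to 59.7 elsewhere. B2m was highest on ketamine array 1 (2552) and lowest on sleep-deprived array 1 (1672). Samd9l read 101 on ketamine array 3 against 63.3 to 82.2 elsewhere, and Oas2 90.4 on the same array against 59.2 to 80.8. Ketamine array 3 also held the highest value of Irf1 (143) and Tap1 (166) and the lowest of Ifih1 (108), Ifitm3 (208) and Gbp3 (57.0), so members with a high value and members with a low value met in the same mouse.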
